A study of Mus musculus with 24 samples.

Results

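Fatty acid oxidation and acyl-CoA genes were followed in inguinal white adipose tissue, the subcutaneous fat depot of the groin, of 24 C57BL/6J wild-type mice, on a high-fat diet by the title of the series. The 35 genes were taken by symbol from the deposited tables, and all 35 were found among 17541 genes and passed the filter on low counts, as 15939 genes did. By the place where their proteins work, 22 were set down as mitochondrial, 9 as peroxisomal and 4 as acyl-CoA synthetases, which activate fatty acids at several membranes. At 16 weeks of age there were 7 control mice (Young CTRL) and 6 given BAM15 (Young BAM15), and at 92 weeks 6 (Aged CTRL) and 5 (Aged BAM15). The compound BAM15 uncouples mitochondrial respiration from ATP synthesis. The sources used here state neither the dose and length of treatment nor the sex of the mice or the composition of the diet. RNA was counted from its 3′ ends (QuantSeq), so a count stands for a transcript end and does not grow with transcript length. The labels give every library its own mouse number, so the p values below measure the spread between mice.

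Long-chain fatty acids are first joined to coenzyme A, and the acyl group then crosses into the mitochondrion as a carnitine ester. In the matrix each turn of beta-oxidation removes an acetyl-CoA unit through a dehydrogenase, a hydratase, a further dehydrogenase and a thiolase, and electrons leave through the electron transfer flavoprotein. Peroxisomes take up very long and branched acyl-CoA through ABC transporters, shorten them with their own set of enzymes and pass the products on. White adipocytes mostly store and release fatty acids, and they also use acyl-CoA for re-esterification.

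None of the 35 genes passed an adjusted p of 0.05 in any comparison by the quasi-likelihood test of edgeR. In young mice, however, 33 of the 35 log2 changes with BAM15 were negative, whereas 47.3% of all genes tested had a negative change. Among the lower values were those of Acsl1, which activates fatty acids, of Cpt1a and Slc25a20, which serve carnitine entry, and of Abcd3, which serves peroxisomal uptake. Those of the synthetases Acsl4 and Acsl5 were -1.14 and -0.84 with all mice, and -0.53 and -0.095 without 1 control mouse, Young CTRL 1. In aged mice 22 of 35 were negative with BAM15, against 48.3% of all genes, and with age 22 of 35 were negative, against 53.5%. The difference between the young and aged counts depended on 4 libraries with little mt-Rnr2, a mitochondrial transcript, which are described below. Without them 31 of 35 were negative with BAM15 in young and 29 of 35 in aged mice, against 47.7% and 48.5% of all genes. The age comparison shares the Young CTRL mice with one BAM15 comparison and the Aged CTRL mice with the other, so their values are given side by side only.

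Each library held 8.62 to 21.9 M counts. The adipocyte marker Adipoq lay between 1390 and 6196 CPM (counts scaled to a common library total over the tested genes) in all libraries, while the brown fat marker Ucp1 was at 0 in the lowest library of every group and reached at most 7.76 CPM. The ribosomal transcript of mitochondria, mt-Rnr2, made up under 0.5% of counts in 4 libraries: Aged CTRL 2, Young CTRL 4 and replicates 2 and 5 of Aged BAM15. Young CTRL 1 stood apart by skin transcripts, with Krt14 at 840 CPM, and Young CTRL 7 and Young BAM15 3 by Acta1 over 10000 CPM, a muscle transcript. In bulk tissue, fewer cells of a type and less RNA per cell cannot be told apart.

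**Figure D1:**
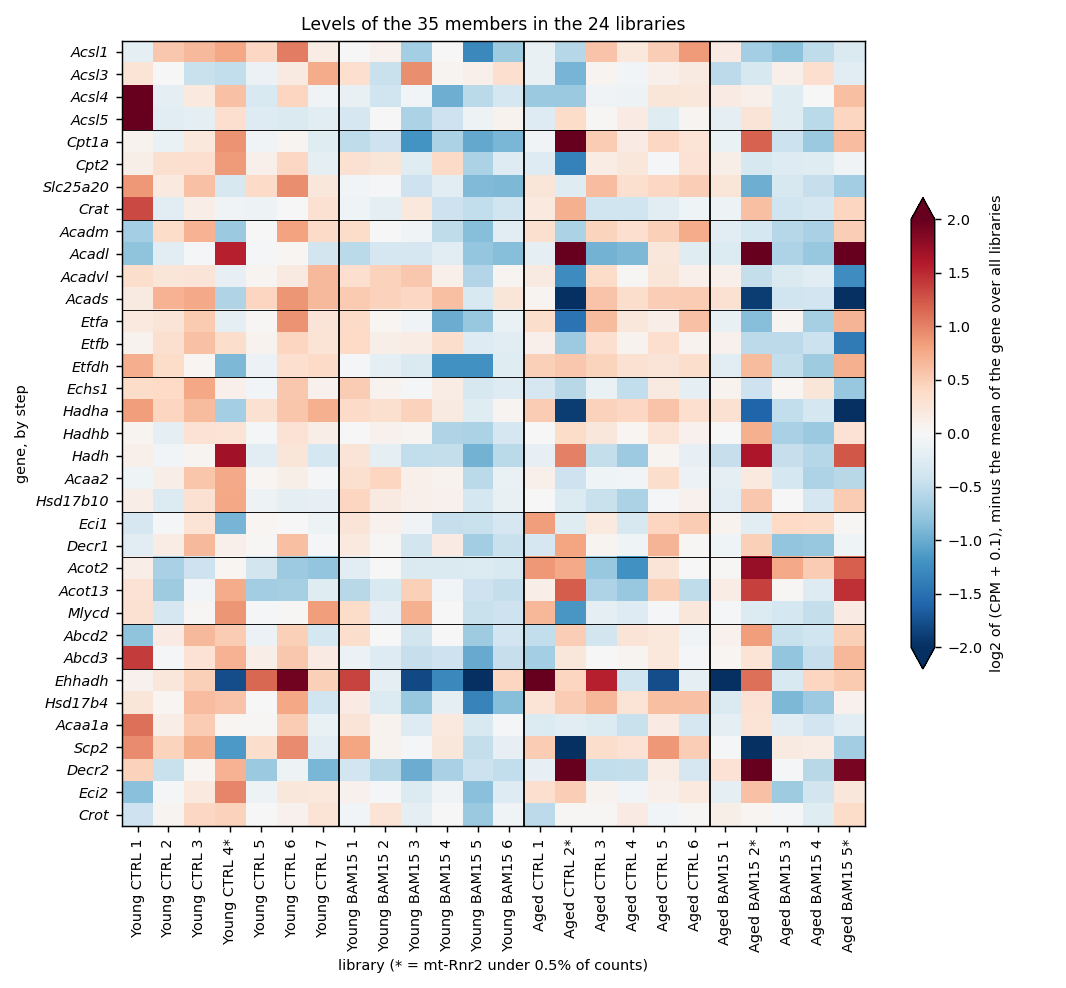
Levels of the 35 genes (rows, by step) in the 24 libraries (columns, by group), as log2 of CPM with 0.1 added, minus the mean of the gene over all libraries. Red is above and blue below the mean, the colour scale ends at 2 on either side, and libraries with mt-Rnr2 under 0.5% of counts carry an asterisk. Acadl, Hadh and Decr2 are red, and Acads, Hadha and Scp2 blue, in the libraries with an asterisk, and Acsl4 and Acsl5 are red in Young CTRL 1.

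Several members stood apart in the 4 libraries with low mt-Rnr2. Acadl, the long-chain acyl-CoA dehydrogenase, lay at 1017 to 1739 CPM in these 4 and at 179 to 401 CPM in the other 20. Hadh, the short-chain hydroxyacyl-CoA dehydrogenase of the matrix, lay at 938 to 1484 CPM against 241 to 554 CPM. Decr2, the peroxisomal dienoyl-CoA reductase, lay at 45.2 to 128 CPM against 13.9 to 38.2 CPM. These ranges do not overlap, and Cpt1a and the thioesterase Acot13 were also higher without overlap in the 4 libraries, which makes 5 of 35 members, while 6.91% of all genes tested were. In the other direction, Acads, the short-chain acyl-CoA dehydrogenase, lay at 19.1 to 65.96 CPM against 75.8 to 184 CPM. Hadha, the alpha subunit of the trifunctional protein, lay at 31.2 to 90.04 CPM against 102 to 258 CPM, and Scp2, a peroxisomal lipid carrier and thiolase, at 18.5 to 55.9 CPM against 64.8 to 175 CPM. These 3 members were lower without overlap, as were 8.76% of all genes. The 4 libraries were set apart by mt-Rnr2 and not by any member, and they belong to 3 groups, 2 of them to Aged BAM15. They held 18.4 to 21.9 M counts, against 8.62 to 17.9 M in the other 20 libraries, and mitochondrial transcripts together made up 12.0 to 21.4% of their counts, against 4.82 to 9.27%. The part of depth and of the mitochondrial share in the members' values was not tested. The log2 change had the other sign once these 4 were left out for 4 of 35 members with age, 7 with BAM15 in aged mice and 2 in young mice, and for 11 members in the difference between both BAM15 effects.

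**Figure D2:**
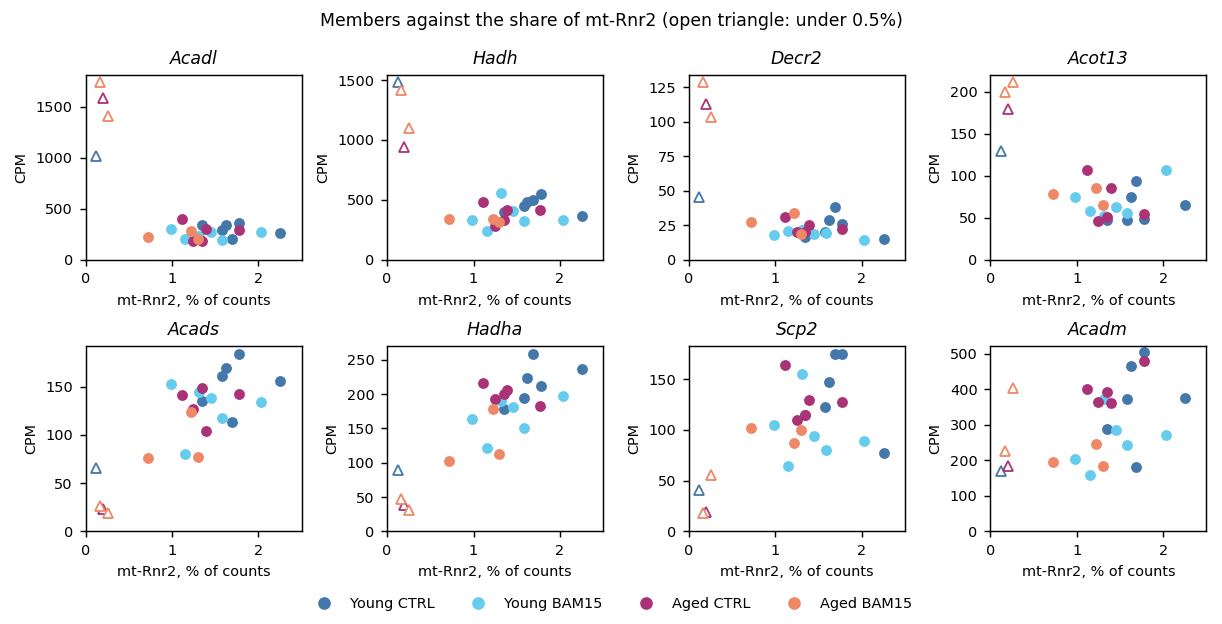
CPM of 8 genes (vertical axes, from 0) against the share of mt-Rnr2 in the counts of the library (horizontal axes, in percent), with 1 point per library coloured by group and open triangles for the 4 libraries under 0.5%. For Acadl, Hadh, Decr2 and Acot13 the triangles lie above all circles, for Acads, Hadha and Scp2 below them, and for Acadm, at 171 to 402 CPM in 3 groups, among them.

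With BAM15 in young mice, 0 of 35 members and 0 of 15939 genes (0%) were called by edgeR. At an unadjusted p under 0.05, 8 members were lower and 0 higher, while 6.88% of all genes were lower and 6.18% higher. The median log2 change was -0.36 over the members, -0.30 over the mitochondrial ones, -0.38 over the peroxisomal ones and -0.86 over the 4 synthetases, and 0.03 over all genes tested. The synthetase median rests in part on Young CTRL 1, which held 223 CPM of Acsl4 and 212 CPM of Acsl5. The changes of both genes without that mouse are given with each gene. All 9 peroxisomal changes and 21 of 22 mitochondrial changes were negative. The smallest adjusted p among members was 0.179. The DESeq2 Wald test called 3 members lower, Acsl1, Slc25a20 and Abcd3, where it called 1.02% of all genes in either direction. Limma-voom with quality weights called 6 members lower, Acsl1, Cpt1a, Slc25a20, Etfdh, Abcd3 and Hsd17b4, where it called 3.96% of all genes in either direction. Without the 4 libraries with low mt-Rnr2, 15 members were lower at an unadjusted p under 0.05, as 10.3% of all genes were. Without Young CTRL 1 there were 7 lower members, where 14.9% of all genes were at an unadjusted p under 0.05 in either direction. In that fit 33 of 35 changes were negative, against 46.8% of all genes.

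With BAM15 in aged mice, 0 of 35 members and 0 of 15939 genes (0%) were called by edgeR. At an unadjusted p under 0.05, 5 members were lower and 1 higher, while 4.59% of all genes were lower and 4.5% higher. The median log2 change was -0.15 over the members, -0.20 over the mitochondrial and 0.04 over the peroxisomal ones, against 0.02 over all genes. Without the 4 libraries with low mt-Rnr2, 13 members were lower at an unadjusted p under 0.05, while 5.41% of all genes were, and the medians were -0.41 for the mitochondrial and -0.31 for the peroxisomal members. Leaving out Aged CTRL 2 alone gave 14 members at an unadjusted p under 0.05, 9 lower and 5 higher, where 19.3% of all genes were at that p. DESeq2 called 0 members, where it called 0.646% of all genes. Limma-voom, which weights libraries by their fitted quality, called 12 members, 11 of them lower, where it called 6.06% of all genes.

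With age, Aged CTRL against Young CTRL, 0 of 35 members were called by edgeR while 33 genes (0.207%) were. At an unadjusted p under 0.05, 4 members were lower and 0 higher, while 3.86% of all genes were lower and 4.56% higher, and the median log2 change was -0.17 over members and -0.04 over all genes. DESeq2 and limma-voom also called 0 members, where they called 1.12% and 0.91% of all genes. The difference between both BAM15 effects, aged minus young, was tested as an interaction. There 0 members and 0 genes (0%) were called by edgeR, and 10 of 35 members had a negative value, against 52.5% of all genes. At an unadjusted p under 0.05, 3 members were higher and 0 lower, while 3.22% of all genes were higher and 1.85% lower. Without the 4 libraries with low mt-Rnr2, 1 member, Echs1, was higher at that p, as 1.67% of all genes were. DESeq2 and limma-voom called 0 members for the difference, and 0.0125% and 0% of all genes.

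**Figure D3:**
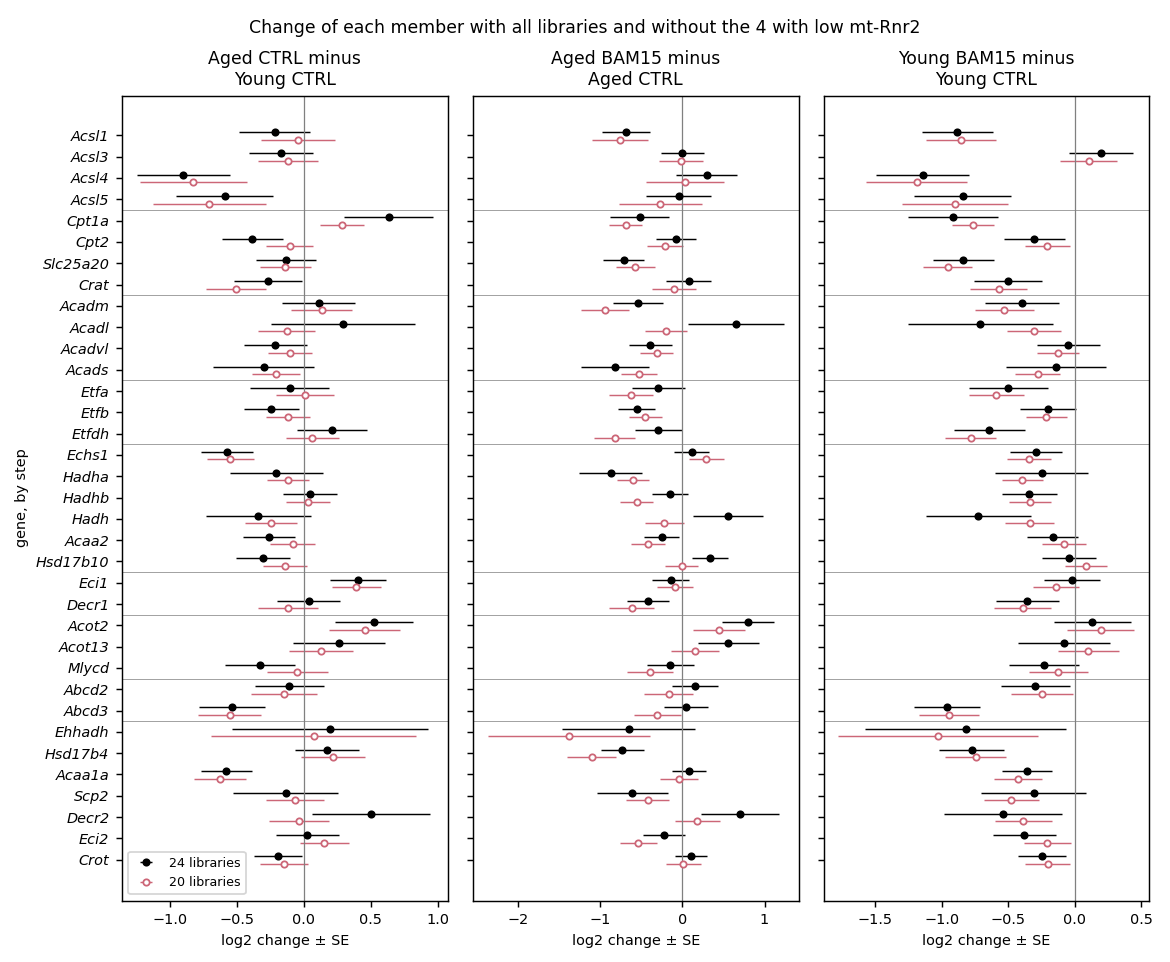
Log2 change of each of the 35 genes (rows, by step) with its standard error (bars) for age and for BAM15 in aged and in young mice, with all 24 libraries (filled points) and with the 20 libraries left after removal of those with low mt-Rnr2 (open points). In the right panel 33 of 35 filled points lie left of 0, and in the middle panel 22 of 35 filled and 29 of 35 open points do.

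Acsl1, the main long-chain acyl-CoA synthetase of adipocytes (chromosome 8, 46471037 to 46536051, plus strand, GRCm38), lay at 1201, 1982 and 2787 CPM as the lowest, median and highest value in Young CTRL. In Young BAM15 the same 3 values were 562, 1105 and 1447 CPM, and in Aged CTRL 922, 1755 and 2466 CPM. The 5 Aged BAM15 mice had 1532, 852, 778, 965 and 1126 CPM. Values of treated and control mice overlapped at both ages, and all 6 young and all 5 aged BAM15 mice were under the mean of their controls. The log2 change with BAM15 was -0.88 ± 0.27 (SE) in young mice (adjusted p = 0.21) and -0.69 ± 0.29 in aged mice (adjusted p = 0.484), and it was -0.22 ± 0.27 with age.

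Acsl4, which prefers arachidonic acid, lay at 34.9, 49.2 and 223 CPM (lowest, median, highest) in Young CTRL and at 21.8, 33.2 and 41.2 CPM in Young BAM15. The value of 223 CPM came from Young CTRL 1. In Aged CTRL the values were 25.7, 40.5 and 50.6 CPM, and the Aged BAM15 mice had 48.0, 46.3, 36.4, 43.0 and 65.4 CPM. Its log2 change with BAM15 in young mice was -1.14 ± 0.35 (adjusted p = 0.21), and -0.53 without Young CTRL 1. With age it was -0.90 ± 0.35 (adjusted p = 0.402), and -0.29 without that library. The interaction was 1.44 ± 0.51 (adjusted p = 0.899), and 0.83 without it.

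The same library held the highest Acsl5, 212 CPM where the other Young CTRL mice had 32.6 to 50.7 CPM, and the log2 change of Acsl5 with BAM15 in young mice was -0.84 ± 0.37 (adjusted p = 0.337). Without Young CTRL 1 it was -0.095 ± 0.19 (adjusted p = 0.874). Young CTRL 1 also held genes of sebaceous glands, chosen after its values were seen. Awat2, a wax ester synthase of these glands, lay at 889 CPM there and at 0.962 CPM in the next library, and Krt79 at 899 against 24.0 CPM. Their part in the Acsl4 and Acsl5 values was not tested. Acsl3, a synthetase of lipid droplets and endoplasmic reticulum, had a log2 change of 0.20 ± 0.24 with BAM15 in young mice and was 1 of the 2 members with a positive value.

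Cpt1a makes the carnitine ester at the outer mitochondrial membrane and is the step that malonyl-CoA inhibits (chromosome 19, 3322334 to 3385733, plus strand, GRCm38). Its lowest, median and highest levels were 53.1, 65.5 and 117 CPM in Young CTRL and 27.4, 36.9 and 47.2 CPM in Young BAM15. No Young BAM15 mouse reached the lowest Young CTRL mouse, and Cpt1a and Abcd3 were the 2 members lower without overlap, as 0.646% of all genes were. In Aged CTRL the values were 60.1, 80.1 and 275 CPM, and the Aged BAM15 mice had 57.7, 143, 46.5, 37.5 and 96.4 CPM. The 275 CPM in Aged CTRL 2 and the 143 and 96.4 CPM in Aged BAM15 came from libraries with low mt-Rnr2.

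The log2 change of Cpt1a with BAM15 was -0.92 ± 0.34 in young mice (adjusted p = 0.275) and -0.52 ± 0.36 in aged mice (adjusted p = 0.705). Without the 4 libraries with low mt-Rnr2 these were -0.76 ± 0.16 (adjusted p = 0.0799) and -0.69 ± 0.20 (adjusted p = 0.263). Leaving out Aged CTRL 2 alone set the aged value to -0.00057. With age Cpt1a was at 0.63 ± 0.33 (adjusted p = 0.638), and at 0.29 ± 0.16 without the 4 libraries and at 0.11 ± 0.27 without Aged CTRL 2.

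Slc25a20, the carnitine-acylcarnitine translocase of the inner membrane (chromosome 9, 108662088 to 108684641, plus strand, GRCm38), lay at 49.0, 79.6 and 117 CPM in Young CTRL and at 32.9, 49.1 and 59.7 CPM in Young BAM15. In Aged CTRL it lay at 51.6, 78.7 and 93.5 CPM, and the Aged BAM15 mice had 72.1, 31.1, 48.7, 44.4 and 37.9 CPM. The Young CTRL value of 49.0 CPM and the Aged CTRL value of 51.6 CPM, the lowest of their groups, came from libraries with low mt-Rnr2, and without the first of them the young treated and control mice did not overlap. The log2 change with BAM15 was -0.84 ± 0.23 in young mice (adjusted p = 0.187) and -0.71 ± 0.25 in aged mice (adjusted p = 0.386). Without the 4 libraries the young value was -0.95 ± 0.18 (adjusted p = 0.0663), the smallest adjusted p of any member there. With age it was -0.13 ± 0.22. The other 2 genes of the shuttle were Cpt2, which returns the acyl group to CoA in the matrix, at -0.30 ± 0.23 in young and -0.08 ± 0.25 in aged mice, and Crat, the carnitine acetyltransferase, at -0.50 ± 0.25 and 0.08 ± 0.27. The aged values were -0.21 ± 0.22 for Cpt2 and -0.11 ± 0.27 for Crat without the 4 libraries, and the young value of Crat was -0.23 ± 0.21 without Young CTRL 1.

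**Figure D4:**
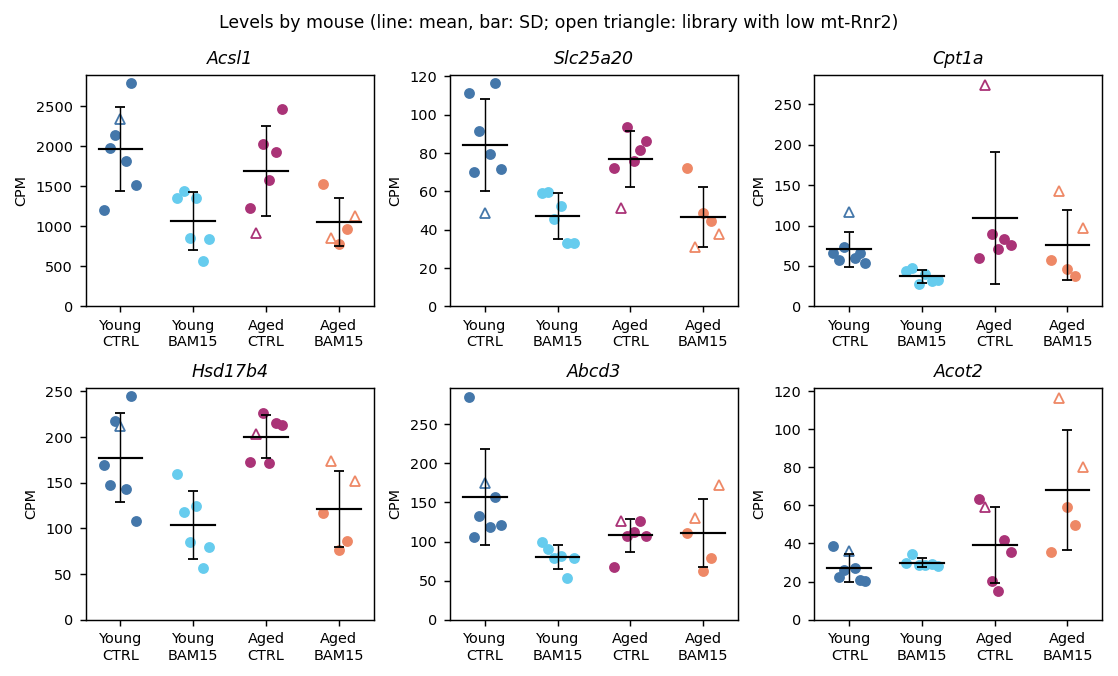
CPM of 6 genes (vertical axes, from 0) in each mouse by group, with the mean (line) and SD (bar) of the group and open triangles for libraries with low mt-Rnr2. Every Young BAM15 mouse lies under every Young CTRL mouse for Cpt1a and Abcd3. For Acot2 the Aged BAM15 mice reach 117 CPM, in a library with low mt-Rnr2, where Aged CTRL mice reach 63.5 CPM.

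Upstream sequence is shown for the 2 entry genes and the transporter whose values were most separated in young mice, and for Acadm, the medium-chain dehydrogenase that textbooks use to describe nuclear receptor control of oxidation. RefSeq promoters (GRCm38.p6, from 250 bases before to 50 after the start) matched 29 of the 35 members, with 31 promoters. Crat, Acaa2, Decr1, Acot13, Abcd2 and Hsd17b4 were not matched. The stretches below are the upstream bases that overlap no annotated exon, read 5′ to 3′ on the strand of the gene, with the nuclear receptor core motif AGGTCA, or its reverse complement TGACCT, in capitals. The Cpt1a stretch lies inside the annotated span of the gene, between exons.
Cpt1a, chr19:3323051-3323284, plus strand: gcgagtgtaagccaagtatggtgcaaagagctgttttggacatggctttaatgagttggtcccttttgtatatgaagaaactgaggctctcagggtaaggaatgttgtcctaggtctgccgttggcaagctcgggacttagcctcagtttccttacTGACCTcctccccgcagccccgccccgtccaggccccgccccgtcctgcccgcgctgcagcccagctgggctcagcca
Slc25a20, chr9:108661886-108662087, plus strand: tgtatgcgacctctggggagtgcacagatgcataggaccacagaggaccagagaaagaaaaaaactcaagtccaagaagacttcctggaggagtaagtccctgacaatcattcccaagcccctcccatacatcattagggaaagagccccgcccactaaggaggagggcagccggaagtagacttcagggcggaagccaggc
Abcd3, chr3:121815303-121815552, minus strand: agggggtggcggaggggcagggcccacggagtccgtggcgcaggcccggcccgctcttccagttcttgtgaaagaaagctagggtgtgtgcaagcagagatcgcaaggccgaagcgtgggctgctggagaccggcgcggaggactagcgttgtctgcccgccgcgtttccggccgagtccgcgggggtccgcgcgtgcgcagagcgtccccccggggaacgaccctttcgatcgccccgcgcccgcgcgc
Acadm, chr3:153944644-153944893, minus strand: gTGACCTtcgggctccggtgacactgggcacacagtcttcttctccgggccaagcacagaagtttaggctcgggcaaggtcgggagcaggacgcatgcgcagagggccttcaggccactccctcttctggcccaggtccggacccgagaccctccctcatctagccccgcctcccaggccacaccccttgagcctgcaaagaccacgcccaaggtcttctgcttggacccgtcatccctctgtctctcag

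AGGTCA on either strand was found once in the Cpt1a stretch and once in the Acadm stretch, and not in those of Slc25a20 and Abcd3. Over whole promoters, 5 of 31 member promoters held it (those of Acadm, Acadvl, Cpt1a, Echs1 and Scp2), and 16.3% of all 32851 promoters did. The direct repeat of AGGTCA with 1 base of any kind between the copies, the textbook element of peroxisome proliferator-activated receptors, was in 0 of 31 member promoters and in 0.0396% of all promoters, on either strand. TCAAGGTCA, the element of oestrogen-related receptors, which contains AGGTCA, was in 0 of 31 and in 0.423%. CCAAT was in 15 of 31 member promoters and in 37.4% of all. A match says only that these letters stand in the window.

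The 4 acyl-CoA dehydrogenases begin each turn in the matrix. Acadm lay at 171, 372 and 503 CPM in Young CTRL and at 160, 258 and 371 CPM in Young BAM15, and at 185, 378 and 479 CPM in Aged CTRL. The Aged BAM15 mice had 247, 225, 194, 183 and 402 CPM. The lowest Aged CTRL value came from Aged CTRL 2, a library with low mt-Rnr2, while the other 5 Aged CTRL mice had at least 359.8 CPM. The log2 change with BAM15 was -0.54 ± 0.30 in aged mice (adjusted p = 0.615), and -0.94 ± 0.29 without the 4 libraries (adjusted p = 0.271). In young mice it was -0.40 ± 0.28.

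Acadl and Acads, named after their values were seen as are the other members given below by change alone, had wide errors with all 24 libraries. Acadl was at 0.65 ± 0.58 with BAM15 in aged mice and at -0.20 ± 0.26 without the 4 libraries, so its sign turned. Acads was at -0.82 ± 0.41 and -0.52 ± 0.22. Acadvl, the very-long-chain dehydrogenase of the inner membrane, was at -0.39 ± 0.26 in aged and -0.05 ± 0.24 in young mice.

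The electron transfer flavoprotein carries electrons from these dehydrogenases to ubiquinone. Its beta subunit Etfb lay at 261, 312 and 375 CPM in Young CTRL, at 208, 272 and 327 CPM in Young BAM15 and at 150, 265 and 313 CPM in Aged CTRL. In Aged BAM15 the 5 values were 264, 173, 173, 184 and 93.4 CPM, and 4 of these 5 were under the mean of Aged CTRL. Its log2 change in aged mice was -0.56 ± 0.23 (adjusted p = 0.459), and -0.45 ± 0.20 without the 4 libraries. The oxidoreductase Etfdh, which passes the electrons to ubiquinone, was at -0.64 ± 0.26 with BAM15 in young mice (adjusted p = 0.311). All 6 Young BAM15 mice were under the mean of Young CTRL for Etfdh. In aged mice Etfdh was at -0.29 ± 0.29, and at -0.82 ± 0.25 without the 4 libraries (adjusted p = 0.27). The alpha subunit Etfa was at -0.50 ± 0.30 in young and -0.29 ± 0.32 in aged mice, the latter -0.62 ± 0.27 without the 4 libraries.

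Among the 6 matrix hydratase, dehydrogenase and thiolase genes, Echs1, the short-chain enoyl-CoA hydratase, had the smallest p with age. It lay at 136, 182 and 240 CPM in Young CTRL, at 113, 143 and 200 CPM in Young BAM15 and at 95.6, 118 and 159 CPM in Aged CTRL, and the Aged BAM15 mice had 148, 106, 145, 166 and 82.9 CPM. Each of the 6 Aged CTRL mice was under the Young CTRL mean, though the ranges overlapped. The log2 change with age was -0.57 ± 0.19 (adjusted p = 0.298). It was -0.55 ± 0.18 without the 4 libraries (adjusted p = 0.206).

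Hadha was at -0.87 ± 0.39 with BAM15 in aged mice (adjusted p = 0.501) and at -0.60 ± 0.19 without the 4 libraries (adjusted p = 0.292). The Aged BAM15 mice had 179, 47.3, 102, 113 and 31.2 CPM, against 38.8, 196 and 216 CPM as lowest, median and highest in Aged CTRL. Its partner subunit Hadhb was at -0.15 ± 0.22, and at -0.56 ± 0.20 without the 4 libraries. Hadh, by contrast, was at 0.56 ± 0.42 in aged mice with all libraries and at -0.22 ± 0.24 without the 4. It lay at 363, 483 and 1484 CPM in Young CTRL, at 241, 332 and 554 CPM in Young BAM15 and at 281, 414 and 938 CPM in Aged CTRL, and the Aged BAM15 mice had 338, 1415, 338, 313 and 1098 CPM. The highest value of Young CTRL, the highest of Aged CTRL and the 2 highest of Aged BAM15 were the libraries with low mt-Rnr2. The interaction of Hadh was 1.28 ± 0.58 (adjusted p = 0.899) and 0.12 ± 0.30 without them.

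The thiolase Acaa2 and the dehydrogenase Hsd17b10 were at -0.25 ± 0.21 and 0.34 ± 0.22 with BAM15 in aged mice and at -0.17 ± 0.19 and -0.04 ± 0.20 in young mice. In the 20 libraries without low mt-Rnr2 the aged values were -0.42 ± 0.21 and -0.0077 ± 0.20, and the young values -0.081 ± 0.16 and 0.085 ± 0.16. Of the enzymes that move double bonds in unsaturated chains, Eci1 was at -0.14 ± 0.23 and Decr1 at -0.42 ± 0.26 in aged mice. In young mice they were at -0.02 ± 0.21 and -0.36 ± 0.24. Eci1 was at -0.092 ± 0.22 in aged and -0.14 ± 0.17 in young mice without the 4 libraries.

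Acot2, a matrix thioesterase that frees fatty acids from CoA (chromosome 12, 83987861 to 83993873, plus strand, GRCm38), was the 1 member higher with BAM15 in aged mice at an unadjusted p under 0.05. It lay at 20.2, 26.1 and 38.5 CPM in Young CTRL, at 28.4, 28.9 and 34.7 CPM in Young BAM15 and at 14.96, 38.6 and 63.5 CPM in Aged CTRL. In Aged BAM15 the 5 values were 35.5, 117, 59.3, 49.8 and 80.0 CPM. The 2 highest, 117 and 80.0 CPM, were the libraries with low mt-Rnr2, and 4 of 5 were over the Aged CTRL mean. The log2 change was 0.80 ± 0.32 (adjusted p = 0.437), and 0.45 ± 0.32 without the 4 libraries (adjusted p = 0.626). Acot2 has a near-identical neighbour, Acot1, so how reads were shared between them is uncertain. Acot1 lay at 218 CPM in Young CTRL 1, and its highest values were 3.80 CPM in Aged CTRL and 2.03 CPM in Young BAM15.

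Acot13, which acts on medium and long acyl-CoA, was at 0.56 ± 0.37 with BAM15 in aged mice and at 0.15 ± 0.29 without the 4 libraries. Mlycd, the malonyl-CoA decarboxylase, which removes the inhibitor of Cpt1a, was at -0.15 ± 0.28 in aged and -0.23 ± 0.26 in young mice, and at -0.40 ± 0.28 and -0.12 ± 0.22 without the 4 libraries.

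Of the peroxisomal genes, Abcd3 (also called PMP70), a transporter of long and branched acyl-CoA (chromosome 3, 121758774 to 121815302, minus strand, GRCm38), had the smallest p of any member in young mice. It lay at 106, 132 and 285 CPM in Young CTRL and at 53.7, 80.1 and 99.8 CPM in Young BAM15, with no overlap. In Aged CTRL it lay at 67.8, 110 and 127 CPM, and the Aged BAM15 mice had 111, 130, 62.7, 78.6 and 172 CPM. Its log2 change with BAM15 was -0.96 ± 0.25 in young mice (adjusted p = 0.179) and 0.04 ± 0.27 in aged mice (adjusted p = 0.983). The interaction was 1.00 ± 0.36 (adjusted p = 0.899). In the 20 libraries with more mt-Rnr2 the aged change was -0.31 ± 0.29 and the interaction 0.64 ± 0.36, and limma-voom gave an interaction of 0.24. The highest Young CTRL value, 285 CPM, was Young CTRL 1, and the young change was -0.75 without it. With age Abcd3 was at -0.54 ± 0.25 (adjusted p = 0.547), and at -0.32 without Young CTRL 1. Abcd2, the transporter of very long chains that is strongly expressed in adipose tissue, lay at 189, 373 and 522 CPM in Young CTRL, at 204, 295 and 423 CPM in Young BAM15 and at 237, 351 and 466 CPM in Aged CTRL. The Aged BAM15 mice had 355, 592, 243, 253 and 463 CPM, and the log2 change was 0.15 ± 0.28 in aged and -0.30 ± 0.26 in young mice, with all groups overlapping. The aged change of Abcd2 was -0.17 ± 0.30 without the 4 libraries.

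Hsd17b4, the peroxisomal multifunctional enzyme of the D pathway, lay at 108, 169 and 244 CPM in Young CTRL, at 56.6, 101 and 159 CPM in Young BAM15 and at 172, 208 and 226 CPM in Aged CTRL. In Aged BAM15 the 5 values were 117, 174, 76.4, 86.1 and 152 CPM, and 174 and 152 CPM came from the libraries with low mt-Rnr2. All 6 young and all 5 aged BAM15 mice were under the mean of their controls. The log2 change with BAM15 was -0.78 ± 0.24 in young mice (adjusted p = 0.221) and -0.73 ± 0.26 in aged mice (adjusted p = 0.403). Leaving out all 4 such libraries set the values to -0.75 ± 0.23 (adjusted p = 0.119) and -1.10 ± 0.30 (adjusted p = 0.263).

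Ehhadh, the bifunctional enzyme of the L pathway, was near the detection limit in all groups. Its lowest, median and highest levels stood at 0.261, 1.60 and 4.60 CPM in Young CTRL, at 0.0922, 0.692 and 3.03 CPM in Young BAM15 and at 0.261, 1.27 and 5.84 CPM in Aged CTRL. The Aged BAM15 mice had 0.195, 2.55, 0.893, 1.55 and 1.67 CPM. With standard errors of 0.74 to 0.81 on the log2 scale in the 2-group comparisons, no change of Ehhadh reached an unadjusted p of 0.05.

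Acaa1a, the peroxisomal thiolase, lay at 58.8, 70.6 and 138 CPM in Young CTRL, at 52.1, 65.6 and 77.3 CPM in Young BAM15 and at 47.5, 53.3 and 72.3 CPM in Aged CTRL, and the Aged BAM15 mice had 56.8, 77.7, 55.7, 49.2 and 54.8 CPM. The highest Young CTRL value was Young CTRL 1. Its log2 change with age was -0.58 ± 0.19 (adjusted p = 0.268), the smallest p of any member with age, and it was -0.41 without that library. A near-identical copy, Acaa1b, makes the split of reads between the 2 genes uncertain. The other 4 peroxisomal genes, Scp2, Decr2, Eci2 and Crot, which exports shortened chains as carnitine esters, had changes of -0.31 ± 0.40, -0.54 ± 0.44, -0.38 ± 0.24 and -0.25 ± 0.18 with BAM15 in young mice. In aged mice these were -0.61 ± 0.43, 0.70 ± 0.48, -0.22 ± 0.26 and 0.11 ± 0.19. When the 4 libraries were left out, Decr2 was at 0.18 ± 0.27, Eci2 at -0.54 ± 0.22 and Crot at 0.012 ± 0.22 in aged mice, and Scp2 at -0.48 ± 0.21 and Eci2 at -0.21 ± 0.17 in young mice.

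The variation of the members from mouse to mouse was compared within groups. Over the 595 pairs of members the median Pearson r of the deviations from the group mean was 0.17 in 24 libraries, and 0.32 in the 20 without low mt-Rnr2, while the median over all pairs of genes was 0.01 and 0.00. In the 20 libraries it was 0.38 among mitochondrial members, 0.35 among peroxisomal ones and 0.34 between the 2 kinds. Of the pairs of members, 63.9% had a positive r in 24 libraries and 79.0% in the 20, against 50.9% and 50.1% of all pairs of genes. These values are descriptions: all genes of 1 mouse share its library, depth and normalisation. Within groups, the mean of all members was lowest in Young BAM15 5, at -0.46 on the log2 scale from its group, and Hsd17b4 had a median r of 0.51 with the other members in the 20 libraries.

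The levels of other cell types moved with some of these groups. The summed level of 10 macrophage markers was 718 to 1511 CPM in Young CTRL and 1044 to 2385 CPM in Aged CTRL, and with BAM15 it was 581 to 1342 CPM at 16 weeks and 573 to 1271 CPM at 92 weeks. B cell markers summed to 602 to 1174 CPM in young control mice and 338 to 2021 CPM in young treated ones. In the aged groups the sums were 203 to 923 CPM and 103 to 1109 CPM. Of the 10 B cell markers, 9 had a positive log2 change with BAM15 in young mice, with a median of 2.29. In aged mice 9 were positive, with a median of 0.91. At an unadjusted p under 0.05 by edgeR, 1 was higher in young and 0 in aged mice, where 6.18% and 4.5% of all genes were. The summed level of 12 adipocyte markers was 29218 to 92219.5 CPM in young control mice and 32534 to 74792 CPM in young treated ones, and 10 of the 12 had a negative log2 change with BAM15 in young mice, with a median of -0.30. A fit with the mean of the adipocyte markers as a covariate was added after the data were seen. There 31 of 35 members were negative in young mice, against 48.9% of all genes, with a member median of -0.25. With covariates for muscle and B cell markers, 26 of 35 were negative, against 50.1% of all genes, with a member median of -0.16. A fit without Young CTRL 1 and Young CTRL 7, the libraries with Krt14 over 50 CPM, was also added later. There 32 of 35 were negative, against 44.2% of all genes, with a member median of -0.36. The part of cell composition in the members' values was not tested beyond these fits.

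Genes around the pathway were read from 5 lists: other mitochondrial oxidation genes, other peroxisomal oxidation genes, peroxins, regulators of oxidation, and genes of CoA synthesis and acyl-CoA binding.

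In young mice with BAM15, 7 of 19 other peroxisomal oxidation genes were lower and 0 higher at an unadjusted p under 0.05, with a median of -0.47. Of all genes tested, 6.88% were lower and 6.18% higher at that p, and 47.3% had a negative change. The list was led by Pecr, a peroxisomal enoyl-CoA reductase, at -1.63 ± 0.48 (adjusted p = 0.198) and Hacl1, a lyase of branched chains, at -0.89 ± 0.28 (adjusted p = 0.221). Pecr lay at 13.9, 22.8 and 193 CPM in Young CTRL, the highest in Young CTRL 1, and at 9.59, 14.96 and 18.4 CPM in Young BAM15. Hacl1 lay at 55.3 CPM in Young CTRL 1 and at most at 30.5 CPM in the other Young CTRL mice. Without Young CTRL 1, Pecr was at -0.51 ± 0.24 (adjusted p = 0.316) and Hacl1 at -0.61 ± 0.24 (adjusted p = 0.255). In that fit 7 genes of the list were lower, where 14.9% of all genes were at an unadjusted p under 0.05 in either direction. Of the 16 peroxins, which build peroxisomes, 14 were negative with a median of -0.41. Pex5, the import receptor, was at -0.90 ± 0.23 (adjusted p = 0.179) and Pex14, its docking partner, at -1.08 ± 0.36 (adjusted p = 0.26). Pex5 was highest, at 70.3 CPM, in Young CTRL 1, and its change was -0.68 ± 0.20 (adjusted p = 0.193) without that mouse, while Pex14 was at -0.42 ± 0.16 without the 4 libraries with low mt-Rnr2. Of the 15 genes of CoA synthesis and acyl-CoA binding 14 were negative, with a median of -0.67, and Pank3, a pantothenate kinase, was at -0.91 ± 0.25 (adjusted p = 0.188) and Slc27a4, a fatty acid transport protein, at -1.42 ± 0.49 (adjusted p = 0.268). Without Young CTRL 1 the number of these genes lower at an unadjusted p under 0.05 went from 6 to 2, the median was -0.48, and Slc27a4 was at -0.56 ± 0.35 (adjusted p = 0.474). Of the 25 other mitochondrial genes 14 were negative, with a median of -0.14. There the smallest p values belonged to Acot1, a cytosolic thioesterase kept in this list, at -5.59 ± 1.46 (adjusted p = 0.187), and at -1.35 ± 0.79 (adjusted p = 0.431) without Young CTRL 1, and to Acss3, a short-chain synthetase, at 0.80 ± 0.28 (adjusted p = 0.271). Of the 15 regulators 10 were negative, with Angptl4 at -0.63 ± 0.32 (adjusted p = 0.405), -0.41 ± 0.28 without the 4 libraries, and Plin5 at -0.50 ± 0.36 (adjusted p = 0.563).

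In aged mice with BAM15 the median was 0.09 over the other mitochondrial genes, 0.05 over the other peroxisomal genes, -0.10 over the peroxins, 0.35 over the regulators and -0.15 over the CoA genes. The 2 smallest p values in each list belonged to Hibch at 0.83 ± 0.34 and Ech1 at -0.49 ± 0.22, Slc25a17 at -0.57 ± 0.22 and Cat at -0.55 ± 0.27, and Pex16 at -0.99 ± 0.34 and Pex2 at -0.46 ± 0.26. Among regulators they belonged to Acaca, a carboxylase that makes malonyl-CoA, at 0.65 ± 0.27 and Angptl4 at -0.80 ± 0.35. Among CoA genes they belonged to Acss2, an acetyl-CoA synthetase, at -0.95 ± 0.32 and Acbd6 at -0.78 ± 0.29. None of these passed, with adjusted p between 0.364 and 0.612. Removal of the 4 low mt-Rnr2 libraries left Hibch at 0.12 ± 0.26, Slc25a17 at -0.90 ± 0.21 and Acbd6 at -0.50 ± 0.21, and the medians were -0.087, -0.25, -0.17, 0.035 and -0.31 over the 5 lists in the same order. With age, Acaca was at -1.09 ± 0.26 (adjusted p = 0.0809), Plin5, which sits between lipid droplets and mitochondria, at 1.47 ± 0.35 (adjusted p = 0.0896) and Acss2 at -1.11 ± 0.29 (adjusted p = 0.14). Acaca lay at 57.4, 92.9 and 190.0 CPM in Young CTRL and at 18.7, 54.6 and 57.6 CPM in Aged CTRL, and its change was -0.69 ± 0.16 (adjusted p = 0.0617) without the 4 libraries. Among the other peroxisomal genes, Pecr was at -1.61 ± 0.48 with age (adjusted p = 0.207), -0.49 ± 0.23 without Young CTRL 1 (adjusted p = 0.707), and the peroxisomal thioesterase Acot4 at 1.66 ± 0.53 (adjusted p = 0.258). Among peroxins, Pex14 was at -0.79 ± 0.35 (adjusted p = 0.538) and Pex19, a chaperone of peroxisomal membrane proteins, at 0.44 ± 0.24 (adjusted p = 0.666), and without the 4 libraries they were at 0.0017 ± 0.17 and 0.15 ± 0.17. Pank1, another pantothenate kinase, was at -2.70 ± 0.76 (adjusted p = 0.167), with its highest value, 211 CPM, in Young CTRL 1, where the other Young CTRL mice had 3.39 to 14.6 CPM. Without that mouse Pank1 was at -0.67 ± 0.38 (adjusted p = 0.817).

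For the difference between both BAM15 effects, aged minus young, the same rule names Hibch at 1.22 ± 0.46, Acot1 at 4.73 ± 1.86, Pecr at 1.69 ± 0.69, Acot6 at 1.33 ± 0.56 and the peroxins Pex5 at 0.91 ± 0.33 and Pex13 at 0.88 ± 0.38. Among regulators it names Acaca at 0.93 ± 0.37 and the retinoid receptor Rxra at 0.65 ± 0.39, and among CoA genes Coasy, the CoA synthase, at 1.35 ± 0.48 and Pank3 at 0.87 ± 0.36. Each had an adjusted p of 0.899. Without Young CTRL 1, Acot1 was at 0.48 ± 1.11 and Pecr at 0.57 ± 0.34. With the 20 libraries left after removal of those with low mt-Rnr2, Hibch was at 0.19 ± 0.33, Pex13 at 0.46 ± 0.32, Rxra at 0.31 ± 0.23 and Pank3 at 0.45 ± 0.37.

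**Figure D5:**
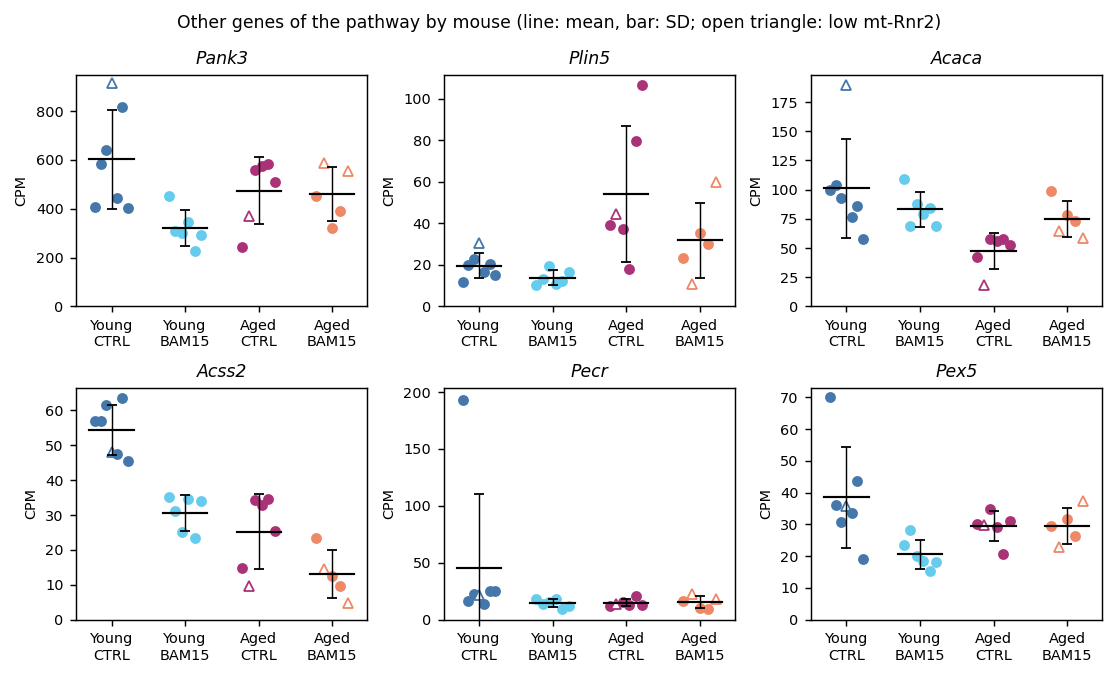
CPM of 6 genes around the pathway (vertical axes, from 0) in each mouse by group, with the mean (line) and SD (bar) of the group and open triangles for libraries with low mt-Rnr2. Pank3 lies between 404 and 916 CPM in Young CTRL and between 226 and 452 CPM in Young BAM15, and the SD bar of Pecr in Young CTRL rests on Young CTRL 1.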

How the data were processed

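The authors deposited raw counts per Ensembl gene and a second table of the same counts divided by size factors, a normalised signal that was used here only to check the counts. The GRCm38 build, R 3.4.3 and DESeq2 1.18.1 are named per the submitters' processing notes, while no aligner or annotation is named there. Libraries held 8.62 to 21.9 M counts. Counts were analysed with edgeR 4.0.16 in R 4.3.3 (TMM scaling, default filter on low counts, robust quasi-likelihood fit of all 24 libraries in 4 groups, 20 residual degrees of freedom), and p values were adjusted by Benjamini-Hochberg over 15939 genes at 0.05. The standard error is the log2 change divided by the root of F. Limma 3.58.1 (voom with quality weights) and DESeq2 1.42.0 were alternatives, with others on scaling, filters, replicates, covariates and libraries. The fits without Krt14 libraries and with an adipocyte covariate were added after seeing the data. The edgeR fit was tested on simulated data. Symbols came from the tables for 14606 genes and from the reference for 2888, and 47 had none.

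The members and gene lists were chosen with earlier results of these data known. Members named by rule were up to 4 per direction and comparison with the smallest p under 0.05, plus Cpt1a, Acadm, Acsl1, Ehhadh, Abcd2 and Acaa1a. Other genes were those with an adjusted p under 0.05, or else the 2 with the smallest p in each list. One result of the age comparison among these other genes is not reported here.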

Additional observations from a re-analysis of the deposited data

Results flagged for a closer look

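In groups of 5 to 7 mice, the highest or lowest value of a member was compared with the rest of its group by Dixon's test. It stood apart in 22 of 140 groups (15.7%), and 19 members were involved. Chance gives about 7 if the tests are independent, but all genes of a mouse share its library. The rate over all genes tested was not computed, so these counts show no excess particular to the members. Of all genes tested, 6.91% were higher and 8.76% lower without overlap in the 4 libraries with low mt-Rnr2. Young CTRL 4, which is among them, held 4 of the 22 values. Aged CTRL 2, a library with low mt-Rnr2, held 12 of the 22 values. It was low for Acsl3 at 8.95 CPM (others 15.6 to 19.4), Cpt2 at 31.1 (66.8 to 97.8), Acadm at 185 (359.8 to 479), Acadvl at 43.0 (105 to 132), Acads at 22.7 (104 to 148), Etfa at 43.2 (133 to 186), Etfb at 150.3 (260.2 to 313), Hadha at 38.8 (183 to 216) and Scp2 at 19.0 (110.2 to 164). It was high for Cpt1a at 275 CPM (60.1 to 90.03), Acadl at 1587 (179 to 401) and Decr2 at 113 (19.7 to 30.7).

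Young CTRL 4, also a library with low mt-Rnr2, was high for Cpt1a at 117 CPM (others 53.1 to 73.1), Acadl at 1017 (198 to 355) and Hadh at 1484 (363 to 548), and low for Hadha at 90.04 (179 to 258). Young CTRL 1, the library with the highest Krt14, was high for Acsl4 at 223 CPM (34.9 to 64.7), Acsl5 at 212 (32.6 to 50.7) and Crat at 222 (76.6 to 110.2). Aged CTRL 1 was low for Abcd3 at 67.8 CPM (107 to 127) and Crot at 17.0 (23.5 to 27.4). Young BAM15 2 was high for Acot2 at 34.7 CPM, where the others of its group had 28.4 to 29.9.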

How the results depend on the processing

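Of the values for the member lists (counts and medians), 624 stayed within their limits under the alternatives and 24 moved. Of the values for the 14 members named by rule, 1451 kept direction and call, 15 gained a call and 46 turned sign. With age, limma-voom and the fit without Krt14 libraries each left 2 members at an unadjusted p under 0.05, where 11.3% and 7.01% of all genes were. With BAM15 in aged mice, limma-voom called 12 members, with 16 at an unadjusted p under 0.05 (22.7% of all genes) and medians of -0.36 over all and -0.36 over peroxisomal members. Without the low mt-Rnr2 libraries 13 were at that p (11.2% of all genes), with medians of -0.41 (mitochondrial) and -0.31 (peroxisomal). The compared groups alone gave 3 (6.22% of all genes). Leaving out 1 mouse each gave 4 to 14, where 6.36% to 19.3% of all genes were at that p, with 14 and 19.3% without Aged CTRL 2. In young mice DESeq2 called 3 and limma-voom 6, and 15 members were at that p without the low mt-Rnr2 libraries (19.5% of all genes) and 13 with the groups alone (19.1%). For the difference between both effects, limma-voom gave 19 negative changes (54.3% of all genes) and medians of -0.0084 (all), -0.096 (mitochondrial) and 0.049 (peroxisomal). Without the low mt-Rnr2 libraries 1 member was at that p (3.44% of all genes), 17 were negative (50.1% of all genes) and the mitochondrial median was -0.037. The muscle and B cell covariates gave 5 (5.75% of all genes). Leaving out 1 mouse gave 2 to 8, where 2.84% to 13.3% of all genes were at that p, with 8 and 13.3% without Aged CTRL 2.

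Among these 14 members signs turned as follows. With age, Ehhadh was -0.30 by limma-voom, and leaving out 1 mouse gave -0.40 to 0.59 for Ehhadh, -0.65 to 0.063 for Hadh and -0.0035 to 0.25 for Acadm. With BAM15 in aged mice, limma-voom gave Abcd3 -0.42, Hadh -0.041 and Abcd2 -0.24. Without the low mt-Rnr2 libraries Acaa1a was -0.042, Abcd3 -0.31, Hadh -0.22 and Abcd2 -0.17. Leaving out 1 mouse gave -0.17 to 0.19 for Abcd3, -0.046 to 0.17 for Acaa1a and -0.067 to 0.28 for Abcd2. In young mice the muscle and B cell covariates gave Acot2 -0.090, Etfb 0.016 and Acadm 0.11. For the difference, limma-voom gave Hsd17b4 -0.50, Acsl1 -0.13, Cpt1a -0.036 and Abcd2 -0.0084. Without the low mt-Rnr2 libraries Hsd17b4 was -0.36 and Ehhadh -0.35. The muscle and B cell covariates gave Hsd17b4 -0.049 and Acsl1 -0.044, and the adipocyte covariate Hsd17b4 -0.040. Leaving out 1 mouse gave -0.099 to 0.24 for Hsd17b4, -0.23 to 0.86 for Ehhadh, -0.38 to 0.029 for Acadm and -0.085 to 0.26 for Slc25a20. The cause was not tested.

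The labels name no pairing by replicate number. Same-numbered mice of different groups had a median r of -0.04 over 33 pairs, with 10 over 0.1. Mice of other numbers and groups had a median r of 0.004 over 182 pairs, with 59 over 0.1. Of 24 libraries, 3 correlated best with their own number. These values cannot show what the numbers stand for. With the number as a block, 0 members were called in each comparison, and Abcd3 in aged mice was -0.0075. In young mice 7 members were at an unadjusted p under 0.05 (10% of all genes) and 32 were negative (45.4% of all genes). Ehhadh had the lowest levels of the members, with standard errors of 0.74 to 0.81 in the 2-group comparisons.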
